A study of Homo sapiens with 36 samples.

Results

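The genes for integrin subunits, collagen chains and laminin chains were described across 36 human lymphoma cell lines. Members were all rows of the count table whose symbol begins with ITGA, ITGB, COL and a digit, LAMA, LAMB or LAMC. This gave 42 of the 2549 genes measured, with 17 integrin subunits, 18 collagen chains and 7 laminin chains. RNA in cell lysates was counted by targeted RNA-Seq, in which a fixed panel of genes is read out, and each line gave 1 library. The lines are established cultures of malignant B cells, and the labels name the line, no treatment and no lymphoma type.

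Lymphoma types were therefore taken from the published origin of each named line. There were 14 lines of germinal centre B-cell-like diffuse large B-cell lymphoma (GCB DLBCL), namely DB, DOHH2, KARPAS422, OCILY1, OCILY7, OCILY8, OCILY18, OCILY19, SUDHL4, SUDHL6, SUDHL10, SUDHL16, TOLEDO and WSU_DLCL2. The 5 lines of activated B-cell-like DLBCL (ABC DLBCL) were HBL1, RIVA, SUDHL2, TMD8 and U2932. The 9 mantle cell lines were GRANTA519, JEKO1, JVM2, MAVER1, MINO, REC1, SP49, SP53 and UPN1. The 5 marginal zone and hairy cell lines are different diseases pooled as 1 type here. They were the hairy cell lines HAIR_M and HC_1 and the marginal zone lines KARPAS1718, SSK41 and VL51. MEC1, the 1 line of chronic lymphocytic leukaemia, and FARAGE and RCK8, DLBCL lines with no subtype assigned here, stayed out of the tests between types. Lines of a type are different cultures, and no line was measured again, so p-values set a type difference against the spread between single libraries. That spread holds differences between lines together with culture and technical variation, which cannot be told apart.

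Integrins are cell surface receptors made of an alpha and a beta subunit, and the partner decides the ligand. On lymphocytes, alpha 4 joins beta 1 or beta 7 to bind VCAM-1, fibronectin or MAdCAM-1 and so directs homing and retention in tissue, while the beta 2 family binds ICAMs. Collagens and laminins are the large secreted proteins of connective tissue and basement membranes, each assembled from several chains, and are made mainly by stromal, endothelial and epithelial cells. Collagen IV chains alpha 3, alpha 4 and alpha 5 form the network of the kidney's filtration membrane, and the laminin chains LAMA3 and LAMB3 help anchor epithelium to its basement membrane.

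Sequence is shown for COL4A3 and COL4A4, because they gave the highest correlation of levels among the pairs tested and are transcribed away from each other from neighbouring starts. On hg38, COL4A3 lies on the plus strand of chromosome 2 from 227164565 to 227314792 and COL4A4 on the minus strand from 227002711 to 227164453, so the outermost starts in GENCODE are 112 bases apart. The RefSeq windows below (GRCh38.p14) run from 250 bases before to 50 bases after RefSeq's own start of each gene, 5′ to 3′ along that gene's strand. RefSeq's starts, 227164624 for COL4A3 and 227164205 for COL4A4, fall within the GENCODE bodies and are 419 bases apart. Capitals mark the 82 bases, 227164374 to 227164455, that both windows hold, read on opposite strands.
COL4A3: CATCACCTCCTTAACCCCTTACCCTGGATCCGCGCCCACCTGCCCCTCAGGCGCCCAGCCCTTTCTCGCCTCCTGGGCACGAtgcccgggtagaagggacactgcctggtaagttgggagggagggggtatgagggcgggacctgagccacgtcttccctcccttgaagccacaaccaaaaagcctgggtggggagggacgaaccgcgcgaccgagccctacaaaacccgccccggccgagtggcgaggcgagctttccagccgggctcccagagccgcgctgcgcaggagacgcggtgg
COL4A4: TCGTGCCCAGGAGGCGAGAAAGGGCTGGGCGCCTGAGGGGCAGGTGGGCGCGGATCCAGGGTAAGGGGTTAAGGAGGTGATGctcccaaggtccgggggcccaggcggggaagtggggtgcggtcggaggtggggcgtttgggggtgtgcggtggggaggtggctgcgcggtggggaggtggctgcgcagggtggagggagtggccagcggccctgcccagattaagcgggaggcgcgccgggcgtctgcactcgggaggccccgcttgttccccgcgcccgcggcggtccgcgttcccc
The GC box letters GGGCGG, searched on both strands, occurred 2 times in the COL4A3 window, 0 times in the COL4A4 window and 0 times in the shared stretch. Of all 35116 RefSeq promoter windows of this length, 45.0% held them. Neither window held TATAAA (11.5% of all windows) or CCAAT (34.6%), which says only that these letters are not in these stretches. No factor binding or methylation was measured.

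Library totals ran from 6422917 to 13451527 counts. Levels are given as CPM, counts relative to the library total scaled by the library's TMM factor, which ran from 0.602 to 1.87. They are compared between lines for 1 gene at a time and never between genes, because the capture efficiency of each target is not given. The upper limit that a count of 0 allows was at most 0.474 CPM (3 counts, in OCILY8). In the library with the fewest counts per CPM, a level of 10 CPM had an exact Poisson 95% interval of 7.65 to 12.7. Both cover counting error only. The MEC1 library differed from the others, with up to 424 counts (19.3 CPM) in a control probe against a median of 10 over libraries, and no gene under 174 counts. It was the highest line for 15 of the 42 members and its own lowest member was at 13.4 CPM, and what this background adds to those ranks was not tested. The 5 B-cell markers measured summed to between 718 and 15828 CPM in the lines (median 3422). A lower level in a lysate can come from fewer expressing cells or from less RNA per cell, which cannot be told apart.

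The classes below describe each gene's own counts and do not rank the families. A member was called broad when at least 27 of 36 lines had 10 CPM or more and lay above their library's highest control probe, and this held for 9 integrins, 5 collagens and 3 laminins. It was called restricted when its median was under 20 CPM and 1 to 6 lines reached 100 CPM, which held for 3 integrins, 5 collagens and 4 laminins. A further 6 stayed near background (under 10 CPM in all but at most 3 lines and never at 100 CPM), and 7 were mixed. For tests a gene needed 10 CPM in at least 4 lines, which 35 members passed (13 integrins, 15 collagens and 7 laminins). COL17A1, COL6A6, COL9A3, ITGA2, ITGA8, ITGA9 and ITGB6 did not. The SD of log2 CPM over lines had a median of 1.56 in the 35 members, beside 1.20 over all 2406 genes tested.

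**Figure D1:**
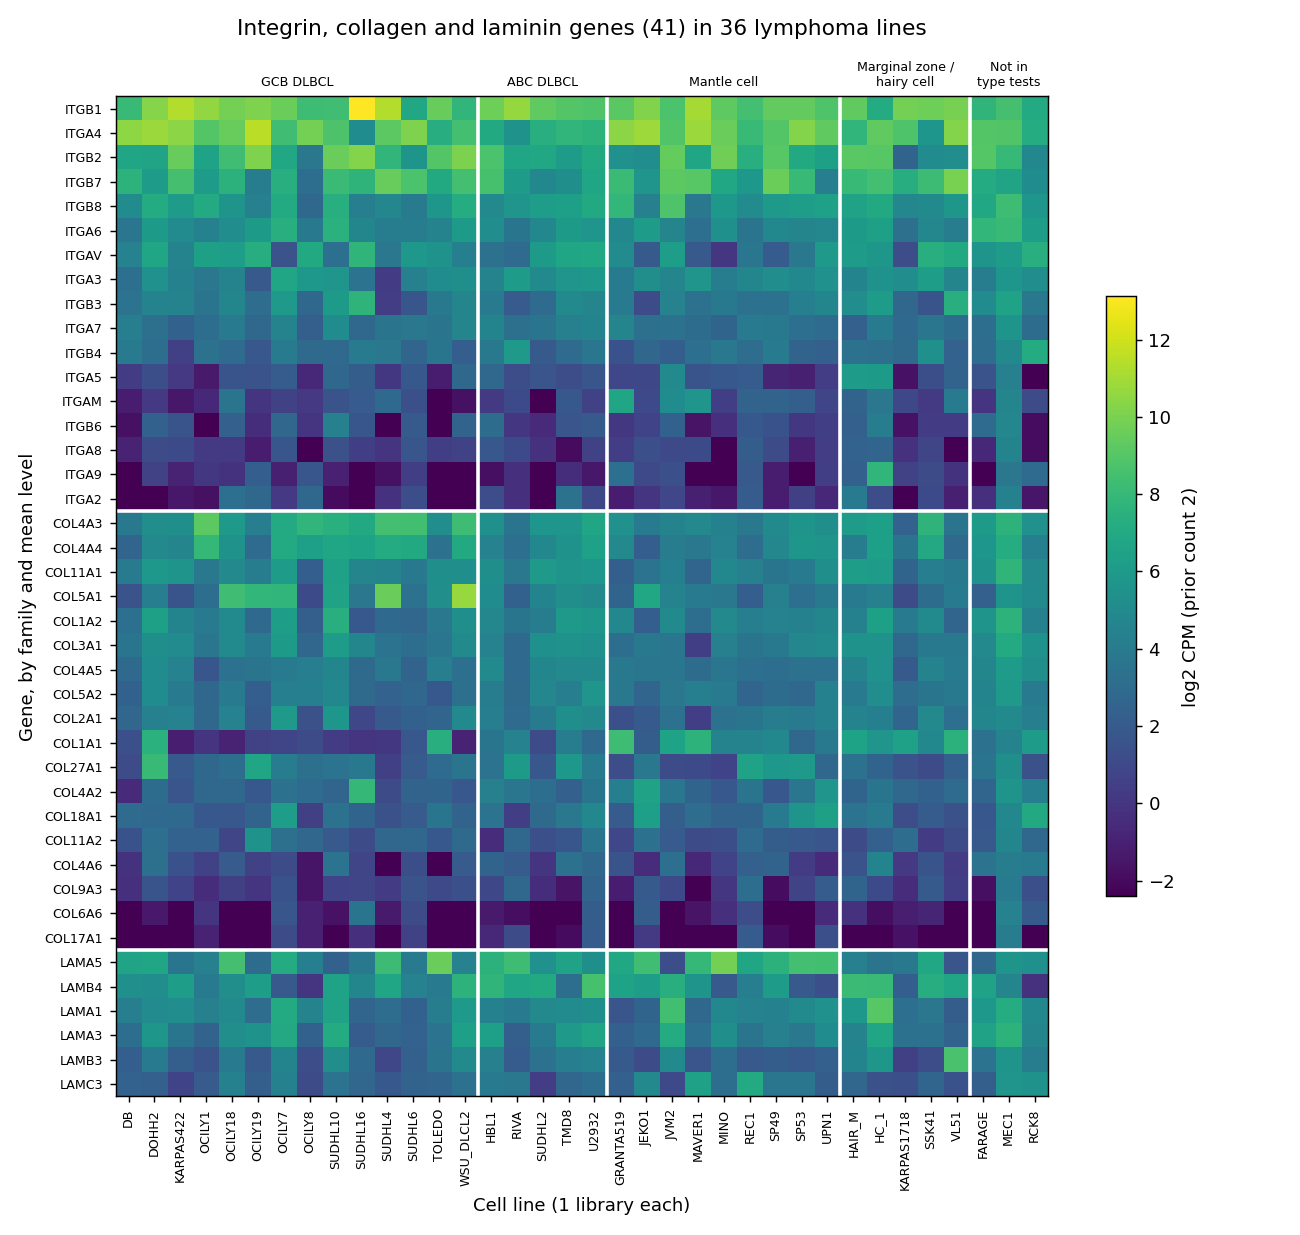
Level of 41 of the 42 members (rows, ordered by mean level within integrins, collagens and laminins) in each of the 36 lines (columns, by lymphoma type), as log2 CPM with a prior count of 2. Colours compare lines within a row. Some rows hold single lines far above the rest of their row, such as COL5A1 in WSU_DLCL2, LAMB3 in VL51 and ITGA9 in HC_1.

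Among leukocyte integrins, ITGA4, the alpha 4 subunit, was at 100 CPM or more in 33 of 36 lines. It ran from 34.7 CPM in SUDHL16 to 2919 CPM in OCILY19. Its ABC DLBCL lines were RIVA at 45.7 CPM, HBL1 at 128, SUDHL2 at 164, U2932 at 198 and TMD8 at 228. All 5 lay below all 9 mantle cell lines (269 in REC1 to 1817 CPM in JEKO1, median 748) and below 12 of the 14 GCB DLBCL lines (median 663 CPM), SUDHL16 and TOLEDO being the exceptions. The marginal zone and hairy cell lines spread over both ranges, from 53.6 CPM in SSK41 to 1214 CPM in VL51. The difference did not pass the test: ABC minus GCB DLBCL was -2.56 ± 0.71 log2 units (SE) with an adjusted p of 0.0565 by edgeR's quasi-likelihood test, Benjamini-Hochberg adjusted over 2406 genes, and mantle cell minus ABC DLBCL was 2.67 ± 0.74 (adjusted p 0.112). The first was on the other side of the 0.05 threshold in 8 of 45 alternative analyses, with adjusted p from 0.000753 to 0.167, among them those without SUDHL16 (0.0219), SSK41, SUDHL10, TOLEDO or WSU_DLCL2.

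ITGB1, the beta 1 subunit shared by many alpha subunits, was above 100 CPM in all 36 lines. Its lowest level was 119 CPM in SUDHL6 and its highest was 8872 CPM in SUDHL16, 3.40 times the next line (KARPAS422, 2609 CPM). SUDHL16 was thus the line with the most ITGB1 and the least ITGA4. Medians by type lay close together, at 857 CPM in GCB DLBCL, 653 in ABC DLBCL, 624 in mantle cell and 823 in marginal zone and hairy cell lines.

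ITGB7, the other partner of alpha 4, ran from 9.01 CPM in OCILY8 to 1013 CPM in VL51 (median 177 CPM). Its type medians were 192 CPM in GCB DLBCL, 70.4 in ABC DLBCL, 260 in mantle cell and 302 in marginal zone and hairy cell lines, and the ranges overlapped. None of ITGA4, ITGB1 and ITGB7 was called by edgeR in any comparison of types. Between the 4 types 1 of the 3 had an unadjusted p under 0.05. DESeq2 called 1, ITGA4, between the 4 types, where it called 275 of all 2406 tested genes.

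ITGB2, the beta 2 subunit needed by LFA-1 and Mac-1, ran from 5.75 CPM in KARPAS1718 to 1220.5 CPM in SUDHL16, with 25 lines at 100 CPM or more. The marginal zone and hairy cell lines split without an overlap: KARPAS1718, SSK41 (33.6 CPM) and VL51 (35.9 CPM) were low, while HC_1 (536 CPM) and HAIR_M (560 CPM) were high. The split fell between the diseases pooled in this type, which were not compared by a test. ITGAM, the alpha subunit of Mac-1 and best known on myeloid cells, was low in most lines and under 10 CPM in 29. It reached 110 CPM in GRANTA519, 51.8 in MAVER1 and 35.3 in JVM2, all mantle cell lines, while the other 6 mantle cell lines had 1.21 to 5.66 CPM and overlapped the GCB DLBCL lines (0 to 11.5 CPM, median 0.949). The marginal zone and hairy cell lines had 0.978 to 15.8 CPM with a median of 5.51, beside a mantle cell median of 5.56 CPM. Summed levels of the 6 myeloid markers, all in the panel, were 80.1 to 360 CPM in mantle cell and 108 to 950 CPM in GCB DLBCL lines. These ranges overlapped, and CD68 alone reached 879 CPM in SUDHL16, a GCB DLBCL line. Over the 5 myeloid markers tested, the median log2 difference of mantle cell minus GCB DLBCL was -1.01, beside -0.28 over all tested genes. By edgeR 2 of the 5 had an unadjusted p under 0.05 and none was called. DESeq2 called 1 of the 5, and 214 of all 2406 tested genes.

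**Figure D2:**
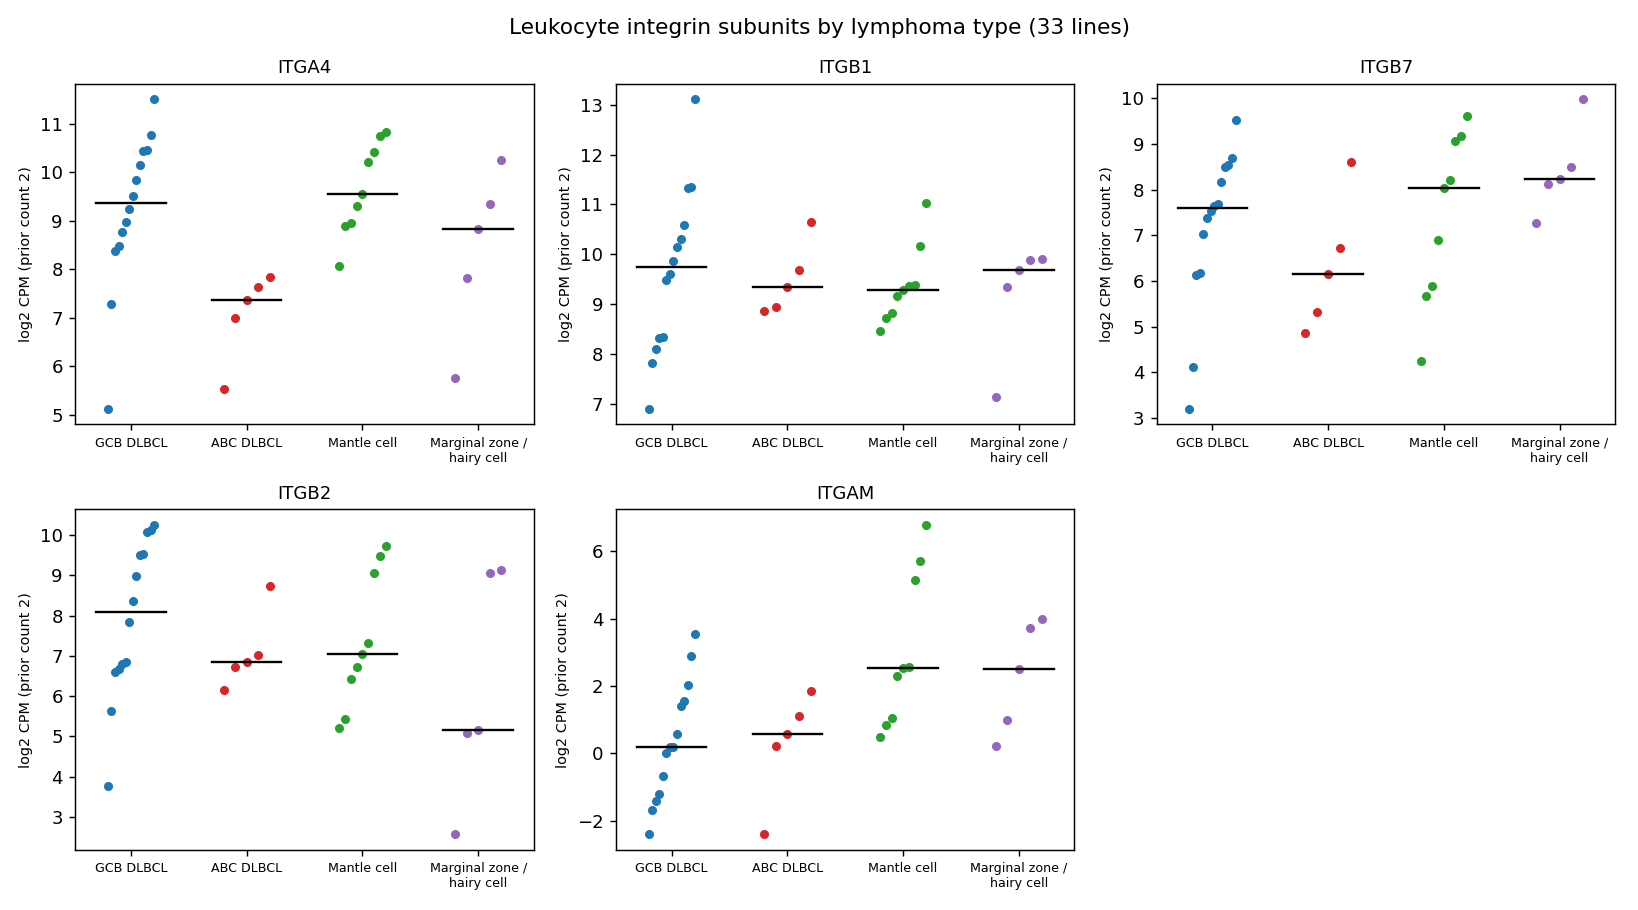
Level of 5 leukocyte integrin subunits (y axis, log2 CPM with a prior count of 2) by lymphoma type in 33 lines. Each point is a line and each bar the median of its type. For ITGA4 the 5 ABC DLBCL points lie below all 9 mantle cell points, and for ITGAM 3 mantle cell lines lie above the rest.

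The remaining integrins varied from line to line. ITGA9, which joins beta 1 to bind tenascin and other ligands, was at 220 CPM in HC_1 and at 0 counts in 9 lines. The next values were 13.4 CPM in MEC1, below that library's highest control probe, and 9.25 CPM in GRANTA519. ITGB8, a beta subunit that pairs with alpha V and can activate latent TGF-beta, was at 10 CPM or more in 35 lines and highest in JVM2 (453 CPM). ITGAV, its partner, ran from 0.835 CPM in MINO to 214 CPM in SUDHL16. ITGB3, another alpha V partner, was highest in SUDHL16 (202 CPM) and VL51 (159 CPM). Of the laminin-binding alpha subunits, ITGA6 was highest in MEC1 (261 CPM) and FARAGE (233 CPM), and ITGA3 reached 110 CPM in OCILY7. ITGB4, the partner of alpha 6 in hemidesmosomes, reached 141 CPM in RCK8 against a median of 8.84 CPM.

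Integrin subunits that form a receptor together gave no correlation across lines that passed the test. Of 31 listed pairs of subunits, chains and ligands, 17 had both genes past the filter. Each was tested over 36 lines by two-sided permutation tests (100000 resamples) of Pearson's r and Spearman's rho with Benjamini-Hochberg adjustment for 17 pairs. A pair passed with both adjusted p under 0.05. Of 9 heterodimers none passed, and neither did ITGB1 with ITGB7, which compete for alpha 4. ITGA4 with ITGB1 gave r = -0.12 and rho = 0.10 (adjusted p 0.642 and 0.727), and r was 0.23 without SUDHL16 and RIVA. ITGA4 with ITGB7 gave r = 0.03 and rho = 0.09 (adjusted p 0.840 and 0.727), and r = 0.02 without the same 2 lines. ITGAM with ITGB2 gave r = -0.07 and rho = -0.05 (adjusted p 0.737 and 0.823). The receptor and ligand pairs did not pass either, with r = -0.17 for ITGA4 with VCAM1 and r = -0.13 for ITGB2 with ICAM1. Without 2 lines each these were -0.42 (SUDHL16 and RIVA left out) and -0.29 (KARPAS1718 and OCILY8 left out). After regression on the log2 TMM factor they were 0.01 and -0.16, and with each gene centred on its type -0.01 and 0.07.

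Collagen IV chains gave the closest pair. COL4A3 ran from 5.34 CPM in KARPAS1718 to 579 CPM in OCILY1, and COL4A4 from 4.49 CPM in JEKO1 to 242 CPM in OCILY1. Their log2 levels had r = 0.91 and rho = 0.91 over 36 lines, with raw permutation p of 1e-05 for both, the smallest that these permutations can give (adjusted p 0.00017 and 8.5e-05). Without OCILY1 and KARPAS1718 r was 0.92. It was 0.91 after each gene was regressed on the log2 TMM factor, 0.90 with each gene centred on its type, and 0.91 without MEC1, and the pair passed in each case. The log2 ratio of COL4A3 to COL4A4 had an SD of 0.67, with extremes of -1.14 in KARPAS1718 and 2.03 in HAIR_M, beside SDs of 1.61 and 1.55 for the genes themselves. Of the 2405 other genes, COL4A4 had the highest r with COL4A3. The next were PTK2, the focal adhesion kinase, at 0.76 and BCL6, the germinal centre repressor, at 0.73, both given as a description with no test because they were chosen by their values. The GENCODE bodies of these genes do not overlap.

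**Figure D3:**
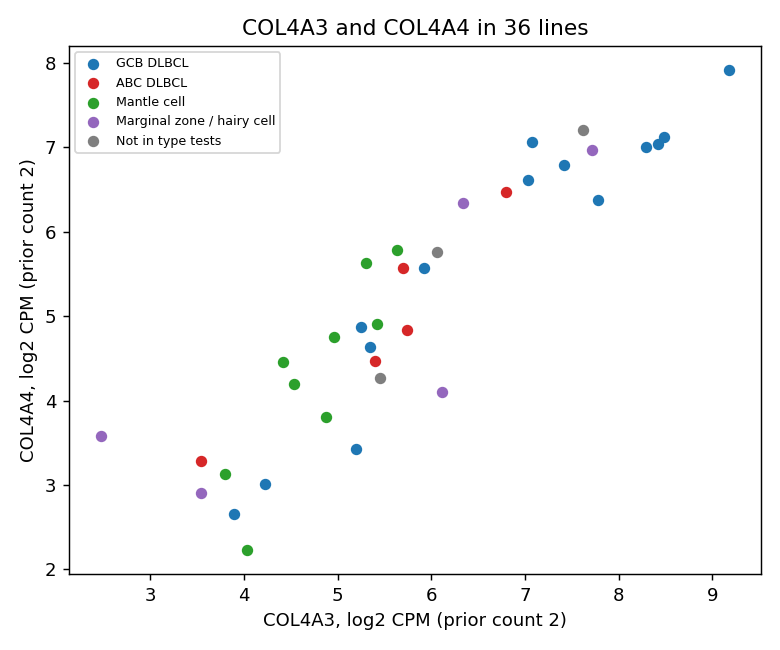
Levels of COL4A3 (x axis) and COL4A4 (y axis) as log2 CPM with a prior count of 2, each point 1 of 36 lines coloured by type. The points follow 1 rising band (r = 0.91) from KARPAS1718 and JEKO1 at the low end to OCILY1 at the top.

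COL4A5 and COL4A6, which also lie head to head (X chromosome, starts 347 bases apart), passed with a lower value. They gave r = 0.48 and rho = 0.51 (adjusted p 0.0116 and 0.00697), and r = 0.44 without MEC1 and OCILY1. The r of 0.48 fell to 0.21 after regression on the TMM factor and to 0.28 within types. This pair did not pass in either, nor with a prior count of 0.5 (adjusted p 0.0507) or on the authors' log2 values (0.0651). LAMA3 with LAMB3, chains of 1 laminin, gave r = 0.57 and rho = 0.68 (adjusted p 0.00187 and 8.5e-05; r = 0.51 without MEC1 and JVM2). After regression on the TMM factor r was 0.43 (adjusted p 0.0799) and rho 0.58 (adjusted p 0.00187), so the pair did not pass. Within types r was 0.57 and the pair passed. COL1A1 with COL1A2, the chains of type I collagen, gave r = 0.12 and rho = 0.10 (adjusted p 0.642 and 0.727).

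**Figure D4:**
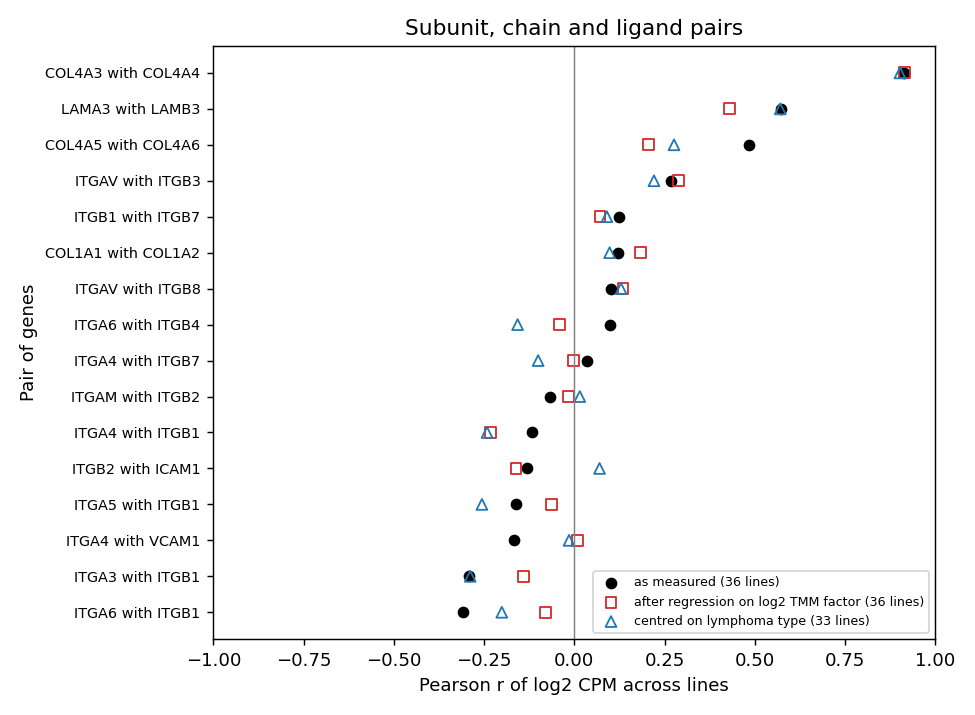
Pearson r of log2 CPM across lines (x axis) for 16 of the 17 pairs (y axis): as measured over 36 lines (filled circles), after regression of each gene on the log2 TMM factor (squares) and centred on lymphoma type in 33 lines (triangles). COL4A3 with COL4A4 stays at 0.90 or above in all 3, and the integrin pairs lie between -0.31 and 0.29.

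The factor was examined because many matrix genes moved with it, a choice made after seeing the data. In an edgeR fit of 33 lines with type as a term, 14 of 35 members rose with the log2 TMM factor, where 28.2% of all tested genes rose, and 1 fell, where 27.5% fell. Those that rose included 8 collagens, with COL2A1 (slope 3.46 ± 0.40 SE, the log2 change per log2 unit of the factor) and COL1A2 (3.07 ± 0.48) among them, the laminins LAMA1 (2.61 ± 0.85) and LAMA3 (3.06 ± 0.76), and the integrins ITGA6, ITGA7 and ITGB8. The member that fell was ITGB1 (-1.92 ± 0.56, adjusted p 0.00442). Markers of cell types other than B cells moved with the factor too: 3 of 5 fibroblast and stromal, 4 of 5 epithelial, 3 of 5 myeloid and 4 of 6 T and NK cell genes rose, 0 of 2 endothelial genes did, and of 5 B-cell genes 0 rose and 1 fell. The endothelial genes KDR and TEK reached 10 CPM in MEC1 only. Type medians of the factor were 0.890 in GCB DLBCL, 1.24 in ABC DLBCL, 0.993 in mantle cell and 1.01 in marginal zone and hairy cell lines. What the factor reflects was not tested.

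Between the 4 types, 6 of the 35 members differed by edgeR's F test, where 6.28% of all tested genes did: LAMB3, COL5A1, ITGAM, LAMC3, ITGA5 and COL4A3. Mantle cell against GCB DLBCL lines gave 4 members (2 higher and 2 lower; background 4.36%), marginal zone and hairy cell against GCB DLBCL gave 2, both higher (3.28%), and marginal zone and hairy cell against mantle cell gave 1, higher (0.582%). None was called in ABC against GCB DLBCL (background 1.75%), mantle cell against ABC DLBCL (0.374%) or marginal zone and hairy cell against ABC DLBCL (0%). In those 3, edgeR gave 5, 6 and 3 members at an unadjusted p under 0.05, DESeq2 called 2, 2 and 0, and limma-voom called 0 in each. Over all 2406 tested genes, these 3 comparisons had 359, 330 and 181 at an unadjusted p under 0.05 by edgeR. DESeq2 called 125, 47 and 31 of them, and limma-voom 28, 1 and 0. The median log2 difference over members was -0.31 for mantle cell minus GCB DLBCL beside -0.28 over all tested genes, and -0.11 beside -0.09 for marginal zone and hairy cell minus GCB DLBCL.

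COL4A3, the alpha 3 chain of collagen IV, was lower in mantle cell than in GCB DLBCL lines. In GCB DLBCL it ran from 14.7 CPM in DB to 579 CPM in OCILY1 (median 132 CPM), and in mantle cell lines from 13.7 CPM in REC1 to 49.3 CPM in SP53 (median 29.1 CPM). Of the GCB DLBCL lines, 9 of 14 lay above every mantle cell line and the other 5 overlapped them. Mantle cell minus GCB DLBCL was -2.57 ± 0.63 log2 units (adjusted p 0.0149), and it was called in 43 of 45 alternatives, the exceptions being limma-voom (0.140) and limma on the authors' log2 values (0.100). The F test over types did not pass without OCILY1 (adjusted p 0.0616), with upper-quartile factors (0.0618) or in either limma fit. COL4A4 had the same direction, -1.75 ± 0.61, and did not pass (adjusted p 0.0942).

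COL5A1, a minor chain of fibrillar collagen, was high in 6 of the 14 GCB DLBCL lines. WSU_DLCL2 had 1685 CPM, SUDHL4 768, OCILY18 322, OCILY19 233, OCILY7 225 and SUDHL10 94.5, while the other 8 had 1.90 to 38.5 CPM. The mantle cell lines had 4.50 to 22.6 CPM apart from JEKO1 at 112 CPM, so the groups overlapped, with medians of 28.4 CPM in GCB DLBCL and 14.2 CPM in mantle cell lines. Mantle cell minus GCB DLBCL was -3.34 ± 1.00 (adjusted p 0.0473). It was called in 16 of 45 alternatives (adjusted p 0.00114 to 0.578) and was -2.47 without WSU_DLCL2 (0.105), where the F test over types was also lost (0.0591).

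ITGAM was higher in mantle cell than in GCB DLBCL lines by 3.35 ± 0.84 log2 units (adjusted p 0.0174). In limma-voom the difference was 2.93 and did not pass (adjusted p 0.0738). Without GRANTA519 it was 2.51 by edgeR and did not pass (adjusted p 0.0781), nor did the F test over types (0.105). With the log2 TMM factor as a covariate that F test had an adjusted p of 0.0579. LAMC3, the gamma 3 laminin chain, was at 135 CPM in REC1, 90.7 in MAVER1 and 29.5 in JEKO1, and at 1.82 to 12.7 CPM in the other 6 mantle cell lines, against 1.46 to 21.1 CPM in GCB DLBCL lines. Its difference was 2.12 ± 0.58 (adjusted p 0.0306), and 1.42 without REC1 (0.144) and 1.77 without MAVER1 (0.0790), and 2.10 with upper-quartile factors (0.0595). Of the 5 fibroblast and stromal markers in the panel, THY1 was lower in mantle cell than in GCB DLBCL lines (-2.79 ± 0.84, adjusted p 0.0489) and the other 4 were not called. THY1 was highest in SUDHL4, a GCB DLBCL line, at 464 CPM against a median of 10.3 CPM over lines. In the same comparison DESeq2 and limma-voom called 214 and 57 of all tested genes and none of the 5 markers. Their summed level was 28.9 to 89.5 CPM in mantle cell and 19.9 to 494 CPM in GCB DLBCL lines, and their part in the matrix gene differences was not tested.

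ITGA5 and LAMB3 were the members called higher in marginal zone and hairy cell lines. These calls rested on the hairy cell lines HAIR_M and HC_1 for ITGA5 and on VL51, a marginal zone line, for LAMB3. ITGA5, the alpha subunit of the fibronectin receptor, was at 70.0 CPM in HAIR_M and 65.9 CPM in HC_1, and at 0.137, 2.35 and 5.56 CPM in KARPAS1718, SSK41 and VL51, while the 14 GCB DLBCL lines had 0.222 to 6.75 CPM. ITGA5 passed the filter with the fewest lines allowed, 4 at 10 CPM or more, namely HAIR_M, HC_1, JVM2 (32.0 CPM) and MEC1 (20.4 CPM). MEC1 was outside the test, and its highest control probe lay at 19.3 CPM. ITGA5 thus entered the test through the lines where it was high, and the p-value takes no account of that. The difference was 3.43 ± 0.82 (adjusted p 0.0113). It was 2.80 without HAIR_M (0.108), 2.87 without HC_1 (0.0661) and 0.01 without both (0.998). LAMB3, the beta 3 laminin chain, was at 406 CPM in VL51, 7.17 times the next of the 36 lines, then 56.7 in HC_1, 23.6 in HAIR_M, 2.25 in SSK41 and 1.23 CPM in KARPAS1718. GCB DLBCL lines had 1.70 to 37.9 CPM and mantle cell lines 2.08 to 32.9 CPM. LAMB3 was higher by 3.02 ± 0.76 than in GCB DLBCL (adjusted p 0.0180) and by 3.71 ± 0.90 than in mantle cell lines (0.0392), and without VL51 these were 0.80 (0.889) and 1.49 (0.807). The second was also lost on leaving out any of 8 of the 9 mantle cell lines (adjusted p 0.0680 to 0.0953), JVM2 being the exception.

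**Figure D5:**
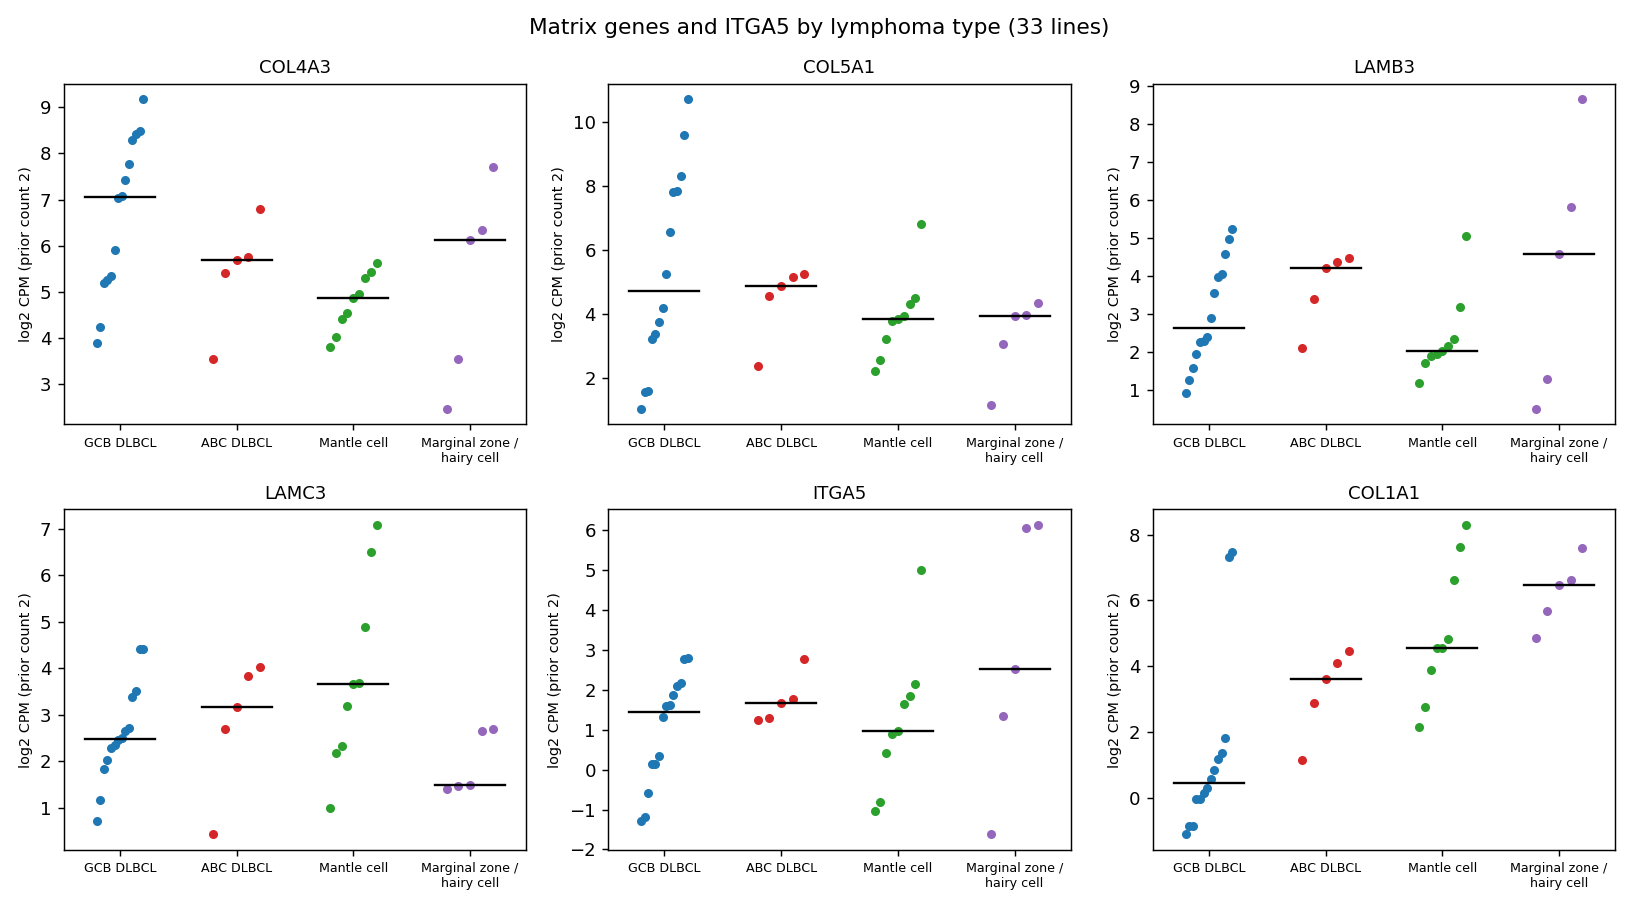
Level of 5 members called between types and of COL1A1 (y axis, log2 CPM with a prior count of 2) by lymphoma type in 33 lines, each point a line and each bar the median of its type. Single lines stand far above their type for LAMB3 (VL51), LAMC3 (REC1, MAVER1) and ITGA5 (HAIR_M, HC_1), and COL1A1 is low in 12 of 14 GCB DLBCL lines.

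COL1A1, the main chain of type I collagen, depended on the scale of the test. In GCB DLBCL it was at 0.274 to 3.35 CPM in 12 lines and at 178 CPM in DOHH2 and 159 CPM in TOLEDO. All 5 ABC DLBCL lines (2.04 to 21.7 CPM), all 9 mantle cell lines (4.27 in JEKO1 to 314 CPM in GRANTA519) and all 5 marginal zone and hairy cell lines (28.7 in SSK41 to 191 CPM in VL51) had more than the GCB DLBCL median of 1.17 CPM. edgeR did not call it (mantle cell minus GCB DLBCL 1.64 ± 1.00, adjusted p 0.363). limma-voom, which weighs log values, gave 3.71 for mantle cell minus GCB DLBCL (adjusted p 0.0143) and 4.98 for marginal zone and hairy cell minus GCB DLBCL (0.00576). Limma on the authors' log2 values gave 3.90 (0.0106) and 5.05 (0.0234).

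Other matrix chains were high in scattered lines. LAMA5, the alpha 5 laminin chain, ran from 2.33 CPM in JVM2 to 941 CPM in MINO, with 8 of 9 mantle cell lines above 100 CPM and JVM2 apart. That level was also reached in 6 of 14 GCB DLBCL, 2 of 5 ABC DLBCL and 1 of 5 marginal zone and hairy cell lines. LAMA5 was not called between the 4 types (adjusted p 0.304 by edgeR's F test). LAMA1 reached 547 CPM in HC_1 and 335 CPM in JVM2, and LAMB4 reached 393 CPM in U2932 and was 0.684 CPM in RCK8. COL27A1 reached 266 CPM in DOHH2, COL4A2 240 CPM in SUDHL16 against a median of 7.21 CPM, and COL18A1, the source of endostatin, 132 CPM in RCK8. COL17A1, the hemidesmosome collagen, was at 0 counts in 21 lines and reached at most 4.06 CPM outside MEC1.

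Genes that work with these proteins were counted from lists. None of 10 integrin ligands measured was called between the 4 types by edgeR's F test, 4 had an unadjusted p under 0.05, and DESeq2 called 1. The share over all tested genes was 6.28% in edgeR's F test, and DESeq2 called 275 of the 2406. Of 15 genes of integrin activation and adhesion signalling 1 was called, PTK2, which was lower in mantle cell than in GCB DLBCL lines (-4.20 ± 0.70, adjusted p 0.000327; medians 39.7 and 623 CPM). Of 12 genes of collagen making and matrix turnover 2 were called, TIMP1 and TIMP2, inhibitors of matrix metalloproteinases. TIMP2 was higher than in GCB DLBCL lines (median 7.20 CPM) by 4.28 ± 0.75 in ABC DLBCL, 3.83 ± 0.69 in mantle cell and 3.57 ± 0.75 in marginal zone and hairy cell lines (adjusted p 0.00107, 0.00074 and 0.00509), comparisons that share the GCB DLBCL lines. Its medians there were 199 CPM in ABC DLBCL and 147 in mantle cell lines, but 13.9 CPM in marginal zone and hairy cell lines. TIMP1 was higher in marginal zone and hairy cell lines by 4.68 ± 1.05 (adjusted p 0.00815), where HAIR_M had 1686 CPM. For that type against GCB DLBCL, edgeR and DESeq2 each called 2 of the 12 genes and limma-voom called 0. Over all tested genes edgeR, DESeq2 and limma-voom called 79, 105 and 14 there. BMP1, the procollagen C-proteinase, was lower in mantle cell than in GCB DLBCL lines (-1.48 ± 0.44, adjusted p 0.0473).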

How the data were processed

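Targeted RNA-Seq of lysates of 36 lymphoma lines, sequenced on an Illumina NextSeq per the labels' protocols, was used as deposited. The authors' count table held whole-number counts of 2559 targets with no scaling. Of these, 10 control probes that name no gene (at most 0.0265% of a library, in MEC1) entered neither library sizes nor tests. The authors' deposited second table held log2 values of scaled counts and served only as an alternative. The submitters' processing notes name genome build hg38. Aligner, probes, counting and strand use: not given in the sources used here. Levels of paralogs and overlapping genes are therefore less certain.

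Counts were scaled by TMM in edgeR 4.0.16 and given as CPM or as log2 CPM with a prior count of 2. The filter of 10 CPM in 4 lines left 2406 of 2549 genes. Types were compared in 1 edgeR quasi-likelihood fit of 33 lines, with Benjamini-Hochberg adjustment over 2406 genes and calls at an adjusted p under 0.05. An SE is the log2 difference divided by the root of its F statistic. Pairs were tested in Python 3.11.15, within clusters only where a gene had 4 or more lines both above and below a gap of 1.5 log2 units that spanned 20% of its range, which none had. Named in full were members called over types, those in pairs and those reaching 100 CPM, with genes of the listed pathways. Alternatives were DESeq2 1.42.0 size factors and test, upper-quartile factors, no filter or one at 50 CPM, limma 3.58.1 (voom, or on the authors' values), the log2 TMM factor as a covariate, other type assignments, prior counts of 0.5 and 10, and leaving out each line. All 42 members had a GENCODE position and 27 a RefSeq promoter window. The scripts were tested on simulated data. Members, lists and pairs were chosen with earlier results of these data known. Some subunits and chains are not analysed here, and 1 member and its pair enter counts only and are not reported here by name.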

Additional observations from a re-analysis of the deposited data

Results flagged for a closer look

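Within a type, 9 of the 105 groups of lines tested (35 members in each of 3 types with 4 to 10 lines) held a line far from the others on the log2 scale, where chance flags about 1 in 20 groups. In mantle cell lines, LAMA5 was at 2.33 CPM in JVM2 against 104 CPM in the next line, COL3A1 at 1.17 CPM in MAVER1 against 9.00, and ITGB3 at 1.97 CPM in JEKO1 against 10.4. COL5A1 was the one high value, at 112 CPM in JEKO1 against 22.6 CPM in the next mantle cell line. In marginal zone and hairy cell lines, ITGB1 was at 141 CPM in HC_1 against 645, and KARPAS1718 was low for ITGAV (2.19 CPM against 56.3) and LAMB4 (4.52 CPM against 109). In ABC DLBCL lines, RIVA was low for COL4A5 (7.38 CPM against 26.5) and COL5A1 (5.05 CPM against 23.7). No cause was tested.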

How the results depend on the processing

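No called difference of a member and no pair that passed changed direction under any alternative run. The direction of called genes outside the members, such as PTK2, TIMP1 and TIMP2, was not followed. The fits without SUDHL10 and OCILY7 and the slopes on the TMM factor were added after seeing the data. Leaving out 1 line at a time gave 5 to 8 members between the 4 types, 2 to 5 for mantle cell against GCB DLBCL, 1 to 2 for marginal zone and hairy cell against GCB DLBCL, 0 to 2 against mantle cell, 0 to 1 for ABC against GCB DLBCL, and 0 in the other comparisons. Both limma fits lost all 6 members between the 4 types and called 1, COL1A1; over all tested genes limma-voom called 61 where edgeR called 151. For mantle cell against GCB DLBCL limma-voom called 1 and limma on the authors' values 2, for marginal zone and hairy cell against GCB DLBCL each called 1, and against mantle cell each called 0. The filter at 50 CPM removed ITGA5, ITGAM, LAMB3 and LAMC3 from the test and left 2 members between types, 2 for mantle cell against GCB DLBCL and 0 for marginal zone and hairy cell against GCB DLBCL and against mantle cell. Upper-quartile factors lost LAMB3, leaving 1 and 0 in the last 2 comparisons, and also lost COL4A3 and LAMB3 between the 4 types and LAMC3 for mantle cell against GCB DLBCL. DESeq2 called 2 members in ABC against GCB DLBCL, 2 in mantle cell against ABC DLBCL and 2 in marginal zone and hairy cell against mantle cell. Of all 2406 tested genes DESeq2 called 125, 47 and 34 in these. With its size factors, or without SUDHL10 and OCILY7, ABC against GCB DLBCL gave 1, ITGA4. With FARAGE and RCK8 as GCB, mantle cell against GCB DLBCL gave 2. Without HAIR_M and HC_1, which leaves only marginal zone lines in that type, the comparison with GCB DLBCL gave 1. Without JVM2, marginal zone and hairy cell against mantle cell gave 2. Without SUDHL10 and OCILY7, 2 members fell with the TMM factor. Of the 4 pairs, 1 passed after regression on the factor and 2 within types. The causes were not tested where not named. No paired analysis was possible because the lines are unrelated and the labels give no replicate numbers.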
